A study of Rattus norvegicus with 17 samples.

Results

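The neuronal RNA-binding proteins described here are 9 genes, the Celf family members Celf1, Celf2, Celf4 and Celf5, the neuronal Elavl family members Elavl2, Elavl3 and Elavl4, and Fmr1 and Stau1. They were chosen by the measured difference between aged impaired and aged intact rats in these same arrays, in which Celf5 came nearest to a difference, so the values of that comparison are given for these genes as a description with no test. Probes were matched by gene symbol in the platform annotation, which gave 1 probe each for 7 of the 9 genes among the 22226 probes of the array. No probe carried the symbol Elavl2 or Elavl4, and these 2 genes are not analysed here. All 7 measured genes were detected on all 17 arrays and entered the fit, which covered 10457 probes (7347 with a symbol).

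RNA came from hippocampal synaptosomes of 17 male F1 rats of the cross Fischer 344 x Brown Norway, with 1 Illumina RatRef-12 array per rat. The groups were 7 aged impaired rats of 28 months, 5 aged intact rats of 28 months and 5 adult rats of 12 months, and no group received a drug or carried an engineered allele. Aged rats were sorted by Morris water maze performance, a test of spatial memory in which intact rats stayed within the range of adults, so both aged groups were split from 1 cohort by performance. Synaptosomes are resealed nerve terminals with attached postsynaptic material, prepared from homogenized whole hippocampus by differential centrifugation, and they do not separate hippocampal subregions or cell types. Values are log2 intensities after background correction and quantile normalization, and a log2 difference of 1 is a doubling of intensity.

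RNA-binding proteins set the splicing, stability, transport and translation of messenger RNAs, and neurons rely on them to hold mRNAs silent in transit and to release them for translation near synapses. Celf proteins bind GU-rich elements and act on splicing in the nucleus and on deadenylation and decay in the cytoplasm. Neuronal Elavl (Hu) proteins bind AU-rich elements and generally stabilize their targets. The Fmr1 product FMRP represses translation of many synaptic mRNAs and its loss causes fragile X syndrome in humans, while the Stau1 product Staufen binds double-stranded RNA and serves mRNA transport and decay.

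All adult arrays were on slide 1 and all aged arrays on slide 2, so age group and slide cannot be told apart. On slide 2 the aged impaired arrays lay at a mean letter position of 8.29 and the aged intact arrays at 4. Mean signals per array ran from 386 to 617 in aged impaired, 313 to 544 in aged intact and 342 to 387 in adult rats, and adult replicate 4 stood apart with the fewest detected probes (10440) and a mean correlation of 0.976 with the rest, the lowest of any array. Neuron markers were bright on average in every group, with 7 of 8 listed genes measured and mean log2 intensities of 12.14, 12.21 and 12.25 in aged impaired, aged intact and adult rats. The dimmest of them was Slc17a7, at 8.38, 8.53 and 8.42 in the same groups. Markers of astrocytes (6 of 6 genes tested), microglia (7 of 8) and oligodendrocytes (5 of 6) were also detected, and in RNA from mixed material fewer cells of a type and less RNA per cell cannot be told apart.

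Celf5, a brain-enriched Celf family member with splicing activity, was higher in aged impaired than in aged intact rats. Its log2 intensities were 11.84, 11.93, 11.92, 11.80, 11.89, 11.79 and 11.98 in the aged impaired rats (replicates 1 to 7), against 11.64, 11.43, 11.66, 11.59 and 11.75 in the aged intact rats (replicates 1 to 5). Each of the 7 aged impaired arrays was above each of the 5 aged intact arrays. The gap was narrow, since aged impaired replicate 6 and aged intact replicate 5 were 0.05 apart. Group means were 11.88 ± 0.07 (SD, n = 7) in aged impaired and 11.61 ± 0.12 (SD, n = 5) in aged intact rats, a difference of 0.27 (SE 0.06) or 20.2% in intensity, which was 2.67 times the residual SD of the fit.

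This was the contrast on which Celf5 was picked. Among 10457 probes it ranked 1 by p and 134 by absolute size, so many probes moved further between the aged groups with a wider spread. The next named genes in that order were Rabggtb, a subunit of the enzyme that attaches lipid anchors to Rab proteins (-0.14, SE 0.03), and Pbx4, a homeobox gene (0.09, SE 0.02). Across the array 0.0669% of probes, 7 in number, had all aged impaired arrays above all aged intact arrays. Probes with all aged impaired arrays below all aged intact arrays are not in this share, although the ranking by p took either direction. In limma, 0% of the 10457 probes passed an adjusted p of 0.05 between the aged groups, and 347 (3.32%) had an unadjusted p under 0.05.

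**Figure D1:**
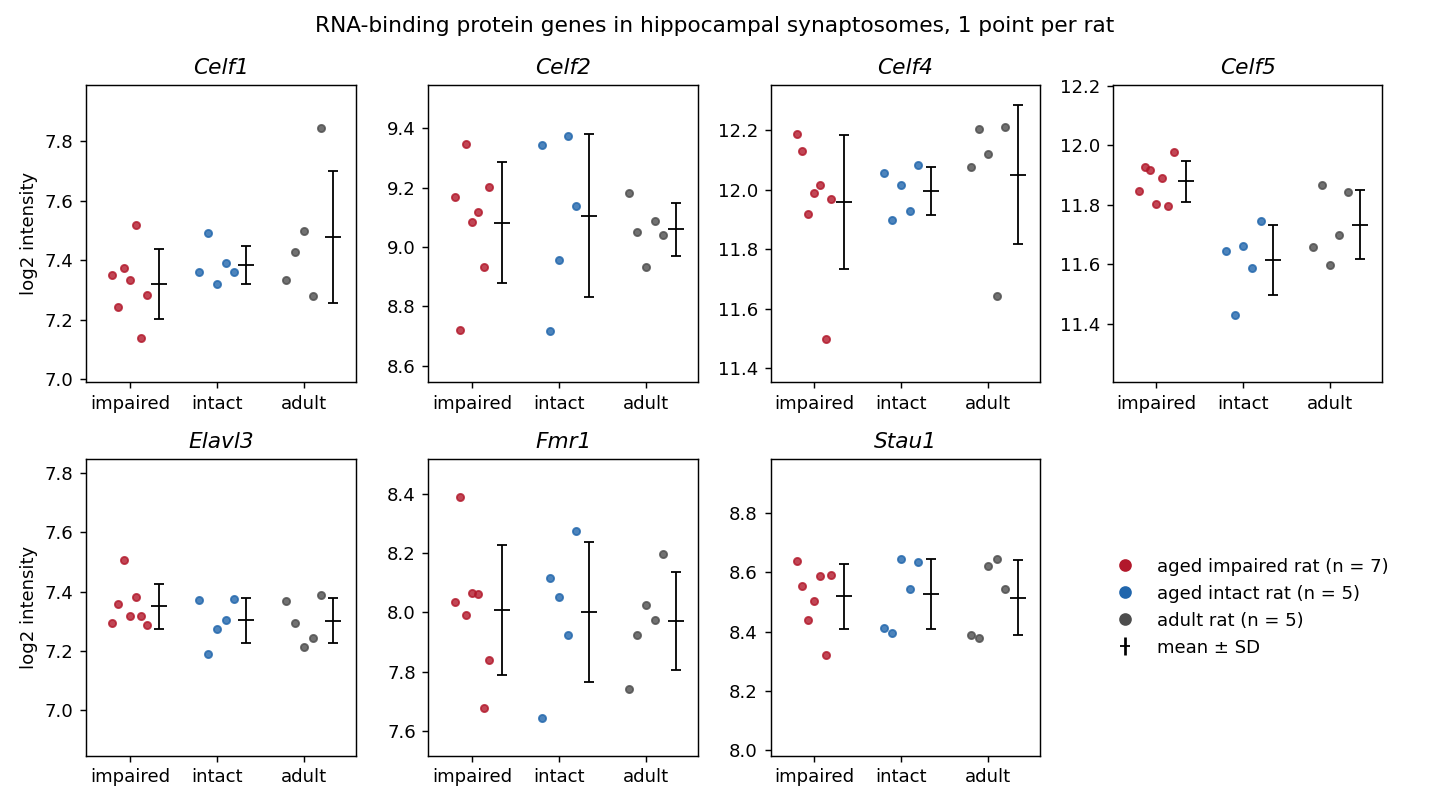
Log2 intensity (y axis, each panel spanning 1 log2 unit) of the 7 measured genes in aged impaired, aged intact and adult rats (x axis), with 1 point per rat in replicate order and the mean ± SD beside each group. Celf5 is the panel in which the 7 aged impaired rats (11.79 to 11.98) lie above the 5 aged intact rats (11.43 to 11.75), and the groups overlap in the other 6 panels.

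The separation of Celf5 depended in part on how arrays were brought to 1 scale. In the deposited signals, before any correction, Celf5 ran from 3457 to 6550 in aged impaired and from 2337 to 4800 in aged intact rats, and the groups overlapped. Divided by the mean signal of its array, Celf5 ran from 8.96 to 10.6 in aged impaired and from 6.60 to 8.83 in aged intact rats, with no overlap. The difference was 0.26 without background correction and 0.26 with a robust estimate of the background, both again without overlap. With arrays scaled to a common median it was 0.31 and the groups overlapped by 0.09, aged impaired rats spanning 11.72 to 12.03 and aged intact rats 11.39 to 11.81. Leaving out any 1 of the 12 aged arrays, without normalizing the rest anew, gave 0.22 to 0.30. The adult arrays enter this difference only through the normalization that all arrays share.

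Place on the slide moved with Celf5 across the 12 aged arrays (Pearson r = 0.63), as did the array's mean signal on a log2 scale (r = 0.50). Within the groups the r with place was 0.08 over the 7 aged impaired arrays and 0.52 over the 5 aged intact arrays, as a description of arrays that share a slide and a normalization. With position as a covariate the difference between aged impaired and aged intact rats was 0.23. Place and group were partly confounded on the slide, and beyond this fit the part of place in the Celf5 difference was not tested.

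**Figure D2:**
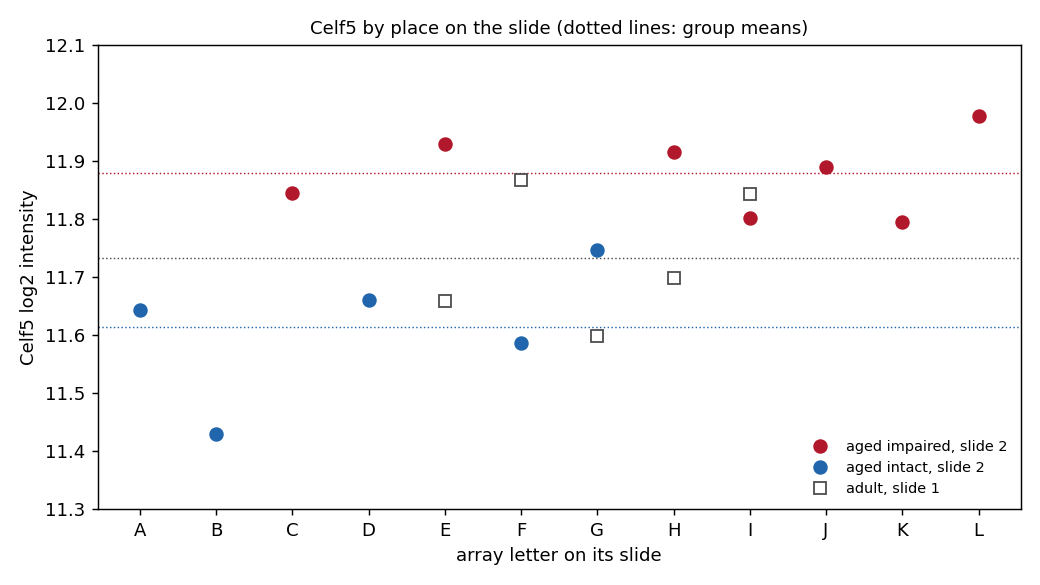
Celf5 log2 intensity (y axis) by the letter of the array on its slide (x axis), with aged impaired and aged intact rats on slide 2 as filled points, adult rats on slide 1 as open squares, and dotted lines at the group means of 11.88, 11.61 and 11.73. Aged impaired arrays lie at letters C, E and H to L and aged intact arrays at A, B, D, F and G, so place and group are partly confounded.

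Levels of cell markers overlapped between the aged groups. Microglia markers averaged 9.23 (8.86 to 10.5) in aged impaired and 9.05 (8.96 to 9.14) in aged intact rats, with 7 of 7 genes above 0 in the difference. The higher aged impaired mean rested on replicate 4, without which the aged impaired mean was 9.02, 2 of 7 genes lay above 0, and the Celf5 difference between aged impaired and aged intact rats was 0.28. Neuron markers averaged 12.14 (12.00 to 12.21) in aged impaired and 12.21 (12.09 to 12.44) in aged intact rats, with 1 of 7 genes above 0. Oligodendrocyte markers averaged 10.19 (9.99 to 10.38) in aged impaired and 10.32 (10.10 to 10.54) in aged intact rats, with 0 of 5 above 0. Astrocyte markers averaged 11.89 and 11.98 in the same groups, with 1 of 6 above 0. Oligodendrocyte precursor markers averaged 8.37 and 8.65, with 0 of 2 above 0. Endothelial markers averaged 7.39 and 7.29, with 2 of 2 above 0, and the 1 tested choroid plexus marker had 7.38 and 7.43. Of all tested genes 48.5% lay above 0 in this difference. The part of any of these marker levels, microglia included, in the Celf5 difference was not tested, and leaving out 1 array does not test it.

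Adult rats held intermediate Celf5 levels, with 11.66, 11.87, 11.60, 11.70 and 11.84, a mean of 11.73 ± 0.12 (SD, n = 5). The adult range overlapped both aged groups. Aged impaired rats were 0.15 above adults (SE 0.06, unadjusted p = 0.020, adjusted p = 0.23 in limma), and aged intact rats were 0.12 below adults (a difference of -0.12, SE 0.06, adjusted p = 0.43). Both comparisons share the adult arrays, and each shares its aged arrays with the contrast that chose Celf5, so neither is independent of that choice. Taken over both aged groups Celf5 differed from adults by 0.01 (SE 0.05, adjusted p = 0.92), with a 95% interval of -0.10 to 0.12. The order of means was aged impaired, adult, aged intact, and neither neighbour in that order differed past the threshold.

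Celf4, a neuron-enriched family member whose loss causes seizures in mice, did not differ between groups beyond its spread. Aged impaired rats gave 12.19, 12.13, 11.92, 11.99, 12.02, 11.50 and 11.97 and aged intact rats 12.06, 11.90, 12.02, 11.93 and 12.08, while adult rats gave 12.08, 12.21, 12.12, 11.64 and 12.21. Aged impaired replicate 6 and adult replicate 4 were low and the remaining arrays lay between 11.90 and 12.21. Group means were 11.96 ± 0.22 in aged impaired (SD, n = 7), 12.00 ± 0.08 in aged intact (SD, n = 5) and 12.05 ± 0.24 in adult rats (SD, n = 5). All aged rats differed from adults by -0.07 (SE 0.10, adjusted p = 0.74, 95% interval -0.29 to 0.14), and by -0.18 without adult replicate 4, which did not pass the threshold either. The aged impaired rats differed from the aged intact ones by -0.04 (SE 0.11).

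Celf1, which marks GU-rich mRNAs for deadenylation and decay and also acts on splicing, had its highest value in 1 adult rat. Aged impaired rats ranged from 7.14 to 7.52 with a median of 7.33, aged intact rats had 7.36, 7.49, 7.32, 7.39 and 7.36, and adult rats had 7.33, 7.43, 7.50, 7.28 and 7.84. All groups overlapped. Means were 7.32 ± 0.12 in aged impaired (SD, n = 7), 7.38 ± 0.06 in aged intact (SD, n = 5) and 7.48 ± 0.22 in adult rats (SD, n = 5). The difference of all aged rats from adults was -0.12 (SE 0.08, adjusted p = 0.40, 95% interval -0.28 to 0.04), and -0.03 without adult replicate 5. Celf1 was dim, and with a robust background, which compresses dim probes less, the same arrays gave -0.23 (adjusted p = 0.38).

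Celf2, a splicing regulator of brain and heart, varied more among aged than among adult rats. Its range was 8.72 to 9.35 in aged impaired rats (median 9.12), 8.72 to 9.37 in aged intact rats (values 9.34, 8.72, 8.96, 9.37 and 9.14) and 8.93 to 9.18 in adult rats, with SDs of 0.20, 0.28 and 0.09. The difference in spread was not tested. Means were 9.08, 9.11 and 9.06 in aged impaired, aged intact and adult rats, and all aged rats differed from adults by 0.03 (SE 0.10, adjusted p = 0.89, 95% interval -0.19 to 0.26).

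Elavl3 (HuC), the measured member of the neuronal Elavl proteins, was dim, and its group means lay within 1 SD of each other. Aged impaired rats ranged from 7.29 to 7.51 (median 7.32), aged intact rats had 7.37, 7.19, 7.27, 7.31 and 7.37, and adult rats had 7.37, 7.29, 7.21, 7.24 and 7.39. The ranges of the groups overlapped in part. Means were 7.35, 7.30 and 7.30 in aged impaired, aged intact and adult rats, each with an SD of 0.08. All aged rats differed from adults by 0.03 (SE 0.04, adjusted p = 0.77, 95% interval -0.06 to 0.11), and aged impaired from aged intact rats by 0.05 (SE 0.04).

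Fmr1 varied more between rats than between group means. Aged impaired rats had 8.04, 8.39, 7.99, 8.06, 8.06, 7.68 and 7.84, aged intact rats had 7.64, 8.12, 8.05, 7.92 and 8.27, and adult rats had 7.74, 7.92, 8.02, 7.98 and 8.20. The lowest and the highest arrays of each group were 0.46 to 0.71 apart, and group means of 8.01, 8.00 and 7.97 in aged impaired, aged intact and adult rats lay within 0.04 of each other. All aged rats differed from adults by 0.03 (SE 0.11, adjusted p = 0.90, 95% interval -0.20 to 0.26).

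Stau1 had the closest group means of the set, at 8.52 ± 0.11 in aged impaired (SD, n = 7), 8.53 ± 0.12 in aged intact (SD, n = 5) and 8.51 ± 0.13 in adult rats (SD, n = 5). Its ranges were 8.32 to 8.64 in aged impaired, 8.40 to 8.64 in aged intact and 8.38 to 8.64 in adult rats, and the groups overlapped over most of these ranges. All aged rats differed from adults by 0.01 (SE 0.06, adjusted p = 0.96, 95% interval -0.12 to 0.14).

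Over the 7 genes, 0 passed the threshold in limma between all aged and adult rats, where 1.2% of all tested probes passed (51 or 0.488% higher and 74 or 0.708% lower in aged rats). None of the 7 had an unadjusted p under 0.05 in that comparison, against 17.2% of all tested probes. Likewise 0 of 7 passed between aged intact and adult rats (0.306% of all probes) and 0 of 7 between aged impaired and adult rats (0.363%). The methods' test, a comparison over the 3 groups with Newman-Keuls pairs that also asks for a 1.2-fold change, gave 0 of 7 in both (2.75% of all probes for aged intact and 2.86% for aged impaired rats), and no gene of the 7 reached 1.2-fold against adults. Without the fold threshold, a setting chosen after seeing the data, it gave 0 of 7 for aged intact (8.39%) and 1 of 7, Celf5, for aged impaired rats (9.7%), unadjusted for the number of probes. At an unadjusted p under 0.05 there were 0 of the 7 for aged intact rats (12.7% of all probes) and 1 of the 7, Celf5, for aged impaired rats (16.3%). No gene of the 7 separated aged from adult arrays completely, and in each age comparison the background share of such probes was 0.918% for all aged rats, 3.42% for aged intact and 2.15% for aged impaired rats. The median difference over the 7 genes was 0.01 for all aged against adult rats (5 above 0 and 2 below), beside -0.01 over all tested genes. Within the aged rats, impaired minus intact, 6 of the 7 genes ran from -0.06 for Celf1 to 0.05 for Elavl3. Each of these differed by less than 1 residual SD, and the share of all probes that did so was not counted. Celf5 was the exception, as the gene picked on this contrast.

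**Figure D3:**
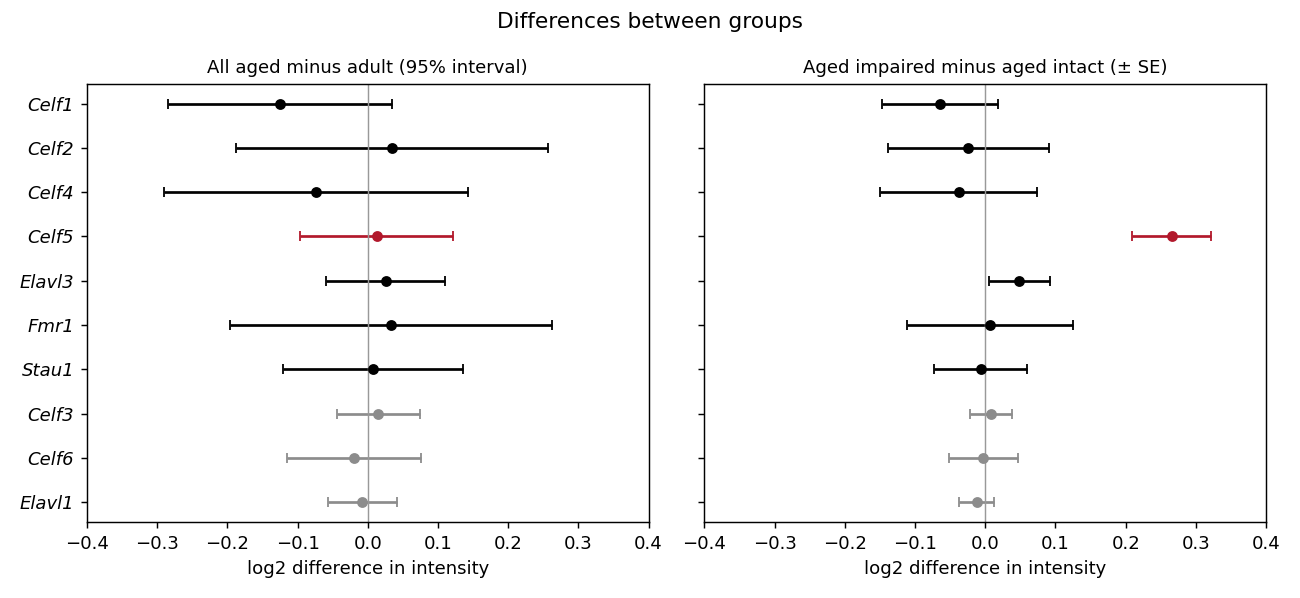
Log2 difference in intensity (x axis) of the 7 genes (black, Celf5 in red) and of Celf3, Celf6 and Elavl1 (grey), for all aged minus adult rats with 95% intervals (left) and for aged impaired minus aged intact rats with standard errors (right). All 10 intervals on the left include 0, and on the right Celf5 stands at 0.27 while the other 9 genes lie between -0.06 and 0.05.

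The 7 genes did not vary as 1 block from rat to rat. Over the 12 aged arrays the highest Pearson correlations of log2 intensity were 0.73 for Celf4 with Stau1, 0.55 for Celf5 with Elavl3, 0.54 for Celf4 with Fmr1 and 0.52 for Fmr1 with Stau1. The lowest were -0.49 for Celf2 with Fmr1 and -0.37 for Celf1 with Celf5. Celf4 with Stau1 fell to 0.25 over all 17 arrays, whereas Celf5 with Elavl3 was 0.54 there. These points share slide, scaling and group, and the correlations are descriptions.

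The remaining family members were dim, and their group means were close together. Celf3 had means of 7.14, 7.13 and 7.12 in aged impaired, aged intact and adult rats (all aged minus adult 0.01, SE 0.03, adjusted p = 0.81), and Celf6 had 7.37, 7.37 and 7.39 (-0.02, SE 0.04, adjusted p = 0.85). Elavl1 (HuR), the family member found in most cell types, had 7.14, 7.15 and 7.15 in the same groups. Each difference was smaller than the spread between rats.

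Beyond the families, 54 other RNA-binding protein genes were listed, of which 33 had a probe and 30 were tested. Between all aged and adult rats 0 of the 30 passed the threshold, beside 1.2% of all tested probes. An unadjusted p under 0.05 in limma was met by 6 of the 30, beside 17.2% of all tested probes. Of the 30, 12 lay above 0 and 18 below, with a median of -0.01 (-0.01 over all tested genes, of which 41.3% lay above 0). At an unadjusted p under 0.05 in limma there were 3 of the 30 between aged intact and adult rats (12.7% of all probes). Between aged impaired and adult rats there were 10 of the 30 (16.3% of all probes), and 0 of the 30 passed the threshold in either comparison. Counts and differences below are of all aged against adult rats unless another comparison is named. Among neuronal splicing regulators (9 tested, 0 passed, 3 above 0), Rbfox1, which binds UGCAUG elements, had 12.88 ± 0.16 in aged impaired, 12.79 ± 0.09 in aged intact and 13.05 ± 0.09 in adult rats, a difference of -0.21 (SE 0.07, adjusted p = 0.12). It passed only when arrays were weighted by quality (-0.24, adjusted p = 0.038), a setting in which adult replicate 4 had the lowest weight (0.211). Khdrbs1 (Sam68), a splicing factor that responds to neuronal signals, had -0.18 (SE 0.07, adjusted p = 0.25).

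Among genes of mRNA stability and polyadenylation (9 tested, 0 passed, 6 above 0), Cpeb1, which controls cytoplasmic polyadenylation at synapses, had 8.14 ± 0.18 in aged impaired, 8.07 ± 0.11 in aged intact and 7.85 ± 0.17 in adult rats, a difference of 0.25 (SE 0.08, adjusted p = 0.14). Hnrnpd (AUF1), an AU-rich element binder that promotes decay, had -0.18 (SE 0.06, adjusted p = 0.16). The highest differences of this list, singled out after their values were seen, were Ddx6, a helicase of processing bodies, at 0.45 (SE 0.22, adjusted p = 0.30), and Zfp36l1, another decay factor, at 0.44 (SE 0.16, adjusted p = 0.18). Ddx6 was also the listed RNA-binding protein gene furthest above 0 between aged impaired and aged intact rats, with means of 11.46 ± 0.28 and 11.02 ± 0.51. Furthest below 0 in that difference was Hnrnpa2b1, at -0.32. Of the 30 tested genes 12 lay above 0 and 18 below in it, with a median of -0.004.

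Of the FMRP family and partners (4 tested, 0 passed), Fxr2, an FMRP relative, had 0.14 (SE 0.10, adjusted p = 0.49) and Cyfip2, which links FMRP to actin regulation, had -0.03 (SE 0.03, adjusted p = 0.67). Of the RNA transport particle genes (5 tested, 0 passed, 0 above 0), Pum2, a translational repressor, had -0.11 (SE 0.07, adjusted p = 0.43) and Syncrip had -0.02 (SE 0.01, adjusted p = 0.33). Syncrip lay near the floor of the scale, at 6.88, 6.88 and 6.90 in aged impaired, aged intact and adult rats, and a robust background gave -0.27 (adjusted p = 0.17).

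Messenger RNAs known to be bound by FMRP or Elavl proteins were listed as well. Of 11 genes 9 were tested, 0 passed between all aged and adult rats, and 4 lay above 0 and 5 below with a median of -0.03. Gap43, a growth-cone protein whose mRNA is stabilized by Elavl4, had 12.33 ± 0.07 in aged impaired, 12.27 ± 0.09 in aged intact and 12.48 ± 0.14 in adult rats (-0.17, SE 0.05, adjusted p = 0.11). Arc, an activity-regulated synaptic protein, had -0.30 (SE 0.21, adjusted p = 0.48). Among the cell markers measured beside these genes, Stmn2, a neuronal microtubule regulator, was lower in aged rats, with 12.05 ± 0.04 in aged impaired, 12.04 ± 0.05 in aged intact and 12.23 ± 0.08 in adult rats (-0.19, SE 0.03, adjusted p = 0.0090). It did not pass without background correction (adjusted p = 0.052), with a robust background (0.092), with mean scaling (0.092), with median scaling (0.18) or with the replicate block (0.079), and in deposited signals without normalization the difference reversed to 0.05 (adjusted p = 0.79). The other 6 of the 7 tested neuron markers did not pass, and of the 7 genes 2 lay above 0 and 5 below. Of all tested probes, 0.708% passed as lower in aged rats.

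**Figure D4:**
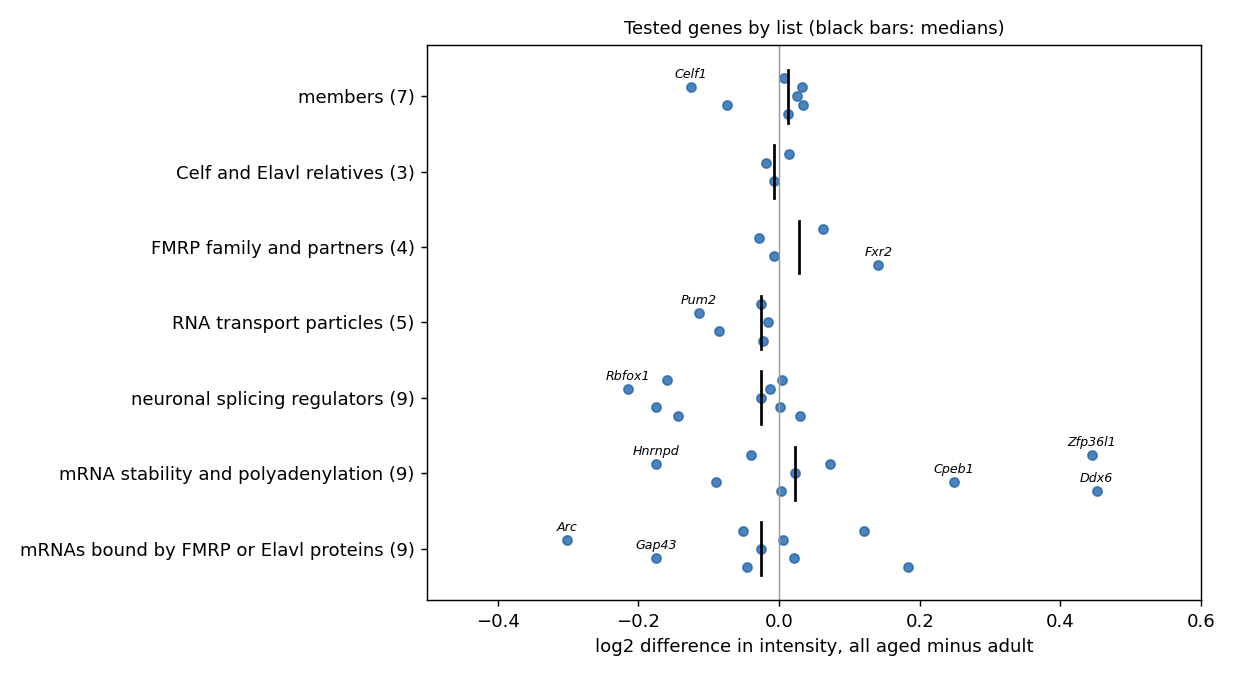
Log2 difference in intensity between all aged and adult rats (x axis) for each tested gene, by list (y axis, number of tested genes in parentheses), with black bars at the list medians. The Celf, Elavl, Fmr1 and Stau1 genes (members) span -0.12 to 0.03, and the mRNA stability list spans -0.18 to 0.45.

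The named genes whose log2 intensities followed Celf5 most closely over all 17 arrays were Gdf1 (Pearson r = 0.74), Rnf182 (0.72), Camkmt (0.66), Epb41l4a (0.65) and Slc4a11 (0.65), out of 7292 genes. Over the 12 aged arrays they were Lmnb2 (0.86), Pbx4 (0.84), Dlgap4 (0.83), Rgs7 (0.82) and Chdh (0.81), with no gene on both lists. Dlgap4, a postsynaptic scaffold protein, had means of 10.91, 10.63 and 10.59 in aged impaired, aged intact and adult rats, and Rnf182, a ubiquitin ligase, had 9.79, 9.56 and 9.65. Camkmt, Slc4a11 and Chdh had group means between 6.91 and 7.01, near the floor of the scale. Lmnb2 and Pbx4 were dim as well, with group means between 7.18 and 7.33. The points share slide, scaling and group, and likeness over these arrays is a description.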

How the data were processed

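RNA of hippocampal synaptosomes was measured on 17 Illumina arrays, grouped from the sample labels. The authors deposited each probe's intensity as an average over beads from GenomeStudio (1.0.6, per the submitters' processing notes), neither background-subtracted nor normalized (lowest signal 28.9). The deposited detection p-value beside it compares the probe with negative controls of the same array. The number of arrays limits the precision. Log2 intensities were computed with limma 3.58.1 in R 4.3.3 (background inferred from the detection p, an offset of 16, quantile normalization). A probe was kept if its detection p was under 0.05 throughout 1 or more groups. Symbols came from the platform annotation (13192 of 22226 probes with 1 symbol, 0 with several, 9034 with none), updated by Entrez ID for 13151 and kept for 41, and a gene with several probes was read from the brightest.

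A single limma model (lmFit, eBayes) held the 3 groups, with Benjamini-Hochberg adjustment over 10457 probes and a threshold of 0.05. All aged means the mean of both aged group means. The p-values come from this model unless another setting is named. Its script was run on simulated data with age differences larger than those of the measured members, so that run does not bear on differences of their size. The genes and lists were chosen with earlier results of these data known. All measured members are named, and of the other lists each gene past the threshold with age, otherwise the 2 with the smallest p in each list of RNA-binding proteins and bound mRNAs, plus the 5 genes most like Celf5 over 17 and over 12 arrays. Alternatives were other backgrounds, scalings, offsets and detection filters, array weights, slide position, the replicate number as a block, only the groups compared, the methods' test, the mean over probes, and each array left out. Mean scaling and the methods' test without its fold threshold were added after seeing the data.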

Additional observations from a re-analysis of the deposited data

Results flagged for a closer look

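Of 21 combinations of gene and group, 2 held an array that stood apart from its group by Dixon's criterion, which chance meets in about 1 in 20 groups, and both concern Celf4. Aged impaired replicate 6 had 11.50 where the next of the 7 arrays had 11.92, a gap of 0.608 of the group's range. Adult replicate 4 had 11.64 where the next of the 5 arrays had 12.08, a gap of 0.764 of the range. Adult replicate 4 also had the fewest detected probes of the 17 arrays (10440). Without aged impaired replicate 6 the Celf4 difference of all aged from adult rats was -0.04, and without adult replicate 4 it was -0.18, neither past the threshold.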

How the results depend on the processing

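The count of Celf, Elavl, Fmr1 and Stau1 genes past the threshold was 0 in each of the 3 age comparisons under the settings run, each left-out array included (0 to 0), except that the methods' test without its fold threshold gave 1 (Celf5) between aged impaired and adult rats, where the p is not adjusted for the number of probes. Of 84 differences of these genes between all aged and adult rats under other settings, 78 kept their direction and 6 reversed, to 0.0504 for Celf1 and 0.156 for Celf4 in deposited signals without normalization, to -0.0287 for Celf2 and -0.0363 for Stau1 with median scaling, and to -0.00195 for Celf2 and -0.0168 for Stau1 with mean scaling. Aged intact minus adult for Celf5 also reversed without normalization (0.0422). Without normalization the median of all probes moved by 0.22 between all aged and adult rats, so these signs are relative to that shift, and in the same setting Celf6 (0.218), Cyfip2 (0.183), Gap43 (0.0521), Hnrnpd (0.0594), Khdrbs1 (0.0534), Pum2 (0.112), Rbfox1 (0.0544), Stmn2 (0.0476) and Syncrip (0.0961) reversed. Celf3 reversed with array weights (-0.00546). Leaving out 1 array gave -0.0209 to 0.0463 for Celf5, -0.0244 to 0.0896 for Fmr1, -0.0267 to 0.0396 for Stau1, -0.0168 to 0.0370 for Celf3 and -0.0422 to 0.0267 for Celf6, all close to 0. For the other RNA-binding protein genes the count was 0 except with array weights (1, Rbfox1), and the cause was not tested. Stmn2 kept an adjusted p under 0.05 with each array left out, and lost it without background correction (0.052), with a robust background (0.092), median scaling (0.18), mean scaling (0.092) and the replicate block (0.079).

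Between aged impaired and aged intact rats, deposited signals without normalization gave 0.41 for Celf5, 0.19 for Elavl3 and 0.12 for Stau1, which moved by more than the residual SD, and the other 88 of 91 values did not. Replicate numbers are shared by the groups but did not pair the samples (15 pairs, correlations of deviations from -0.38 to 0.24, 4 over 0.1). With the replicate block Celf5 differed by 0.26 between aged impaired and aged intact rats, 0 of the 7 genes passed with age, and 1 of all probes passed between all aged and adult rats in place of 125. Replicates 6 and 7 exist only among aged impaired rats, so the block takes these arrays out of the group differences. It also fits a term for numbers that did not pair the samples, which leaves less to estimate the spread. The lower count therefore cannot tell whether the age differences hold. Without adult replicate 4 the count over all probes was 21 higher and 8 lower. Signal near the background limits the dim genes Celf1, Celf3, Celf6, Elavl1, Elavl3 and Syncrip, whose differences are compressed.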
